A study of Mus musculus with 16 samples.

Results

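Cish and the Socs genes encode the feedback inhibitors of cytokine signalling, and their transcripts were compared among the right kidneys of 5 mice. The members are all probes whose platform symbol is Cish or Socs followed by a digit. There were 7 such probes for 5 genes among 20205 probes on the array. Cish has 1 probe, Socs1 and Socs2 have 2 each, and Socs5 and Socs7 have 1 each. Cish was singled out because its ratios were already known to spread over these kidneys, so its values are a description, and calls of it in the fits are no evidence independent of that choice. The Socs probes came in by family name.

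The animals W1, W2, W3, W4 and W5 were wild-type male littermates, as the labels and series title describe them. They were bred on a mix of C57BL/6 and 129Sv and carried no transgene or treatment that the labels name. They were killed at 88 days of age, give or take 2 days, between 8 and 10 in the morning. Kidneys W1 to W4 were each hybridised against W5 on 4 two-colour arrays, 16 in all, with the channels exchanged on 8 of them. All arrays of 1 mouse repeat the same pair of kidneys, so tests over arrays concern these 5 kidneys and not mice in general. Between 80.2% and 91.1% of the probes had a value on an array. After the signs were turned to a common direction, arrays of the same mouse correlated over all probes at -0.10 to 0.20 between orientations and at 0.17 to 0.40 within one. Between mice, arrays that shared an orientation reached as high, at 0.026 to 0.42, so these correlations do not set repeats of a mouse apart.

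Cytokine receptors of the growth hormone, prolactin, erythropoietin and interleukin families signal through JAK kinases, which phosphorylate STAT transcription factors. STATs in turn induce CIS, the product of Cish, and the SOCS proteins. These bind phosphorylated receptors or kinases through an SH2 domain and recruit a ubiquitin ligase of elongins and cullin 5 through the SOCS box, which closes a negative feedback loop. Cish and Socs2 are classic targets of STAT5, Socs1 answers mainly to interferon, and the kidney is a known target organ of growth hormone.

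The Cish promoter is shown because Cish is a textbook target of STAT5, beside that of Socs1, the only other member with an entry in the RefSeq promoter table. Both run from 250 bases before the annotated start to 50 after it, in build GRCm38.p6. Capitals mark TTCNNNGAA, the core letters of a STAT5 site, which read the same on both strands. No match overlapped another.
Cish, chr9:107296409-107296708, plus strand: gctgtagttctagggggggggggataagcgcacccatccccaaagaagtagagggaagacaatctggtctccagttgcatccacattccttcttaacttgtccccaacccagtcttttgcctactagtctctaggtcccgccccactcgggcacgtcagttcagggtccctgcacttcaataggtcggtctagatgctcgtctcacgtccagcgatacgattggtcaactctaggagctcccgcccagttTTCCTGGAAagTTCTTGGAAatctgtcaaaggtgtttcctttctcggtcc
Socs1, chr16:10785487-10785786, minus strand: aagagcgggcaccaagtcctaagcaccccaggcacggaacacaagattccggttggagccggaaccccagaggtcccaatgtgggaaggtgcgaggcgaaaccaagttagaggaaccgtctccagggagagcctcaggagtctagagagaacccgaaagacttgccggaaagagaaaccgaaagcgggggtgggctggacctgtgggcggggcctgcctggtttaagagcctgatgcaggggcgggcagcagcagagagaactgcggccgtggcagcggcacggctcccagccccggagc
The Cish window held 2 matches, TTCCTGGAA and TTCTTGGAA, beginning at bases 1 and 12 of the transcript, and the Socs1 window held 0. At least 1 match lay in 8.3% of the 32851 windows in the table, and 2 or more in 0.457%. A match describes letters and not a bound site. Entries were matched for 2 of the 5 genes, and not for Socs2, Socs5 and Socs7.

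Values are log2 ratios of a kidney against W5, with all arrays turned to a common sign. The numerator of the deposited ratios is not given in the sources used here, so a sign tells on which side of W5 a kidney lay and not whether it held more or less transcript. The positive side is the one on which W4 lay for Cish. A fitted value is the mouse coefficient after a term for channel orientation, given with its standard error (SE, n = 4 arrays unless stated). The range of a probe is its highest minus its lowest value in the 5 kidneys, counting W5 as 0. Ratios hold no level, so the kidney identity of the samples could not be checked against marker levels. Whether fewer cells of a type or less RNA per cell lies behind a ratio cannot be told apart in whole kidneys.

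Cish placed W1 and W4 on opposite sides of W5. The ratios were -0.41, -0.63, -0.13 and -0.84 on the 4 arrays of W1. They were 0.63, 0.22, 0.41 and 0.46 on the arrays of W4. Every W1 array thus lay on the negative side and every W4 array on the positive side, a placing on 1 side shared by 17.6% of all tested probes in W1 and 16.8% in W4. In the deposited, unturned values the sign changed with the channel orientation on all 8 of these arrays. W2 gave -0.064, 0.073, -0.13 and -0.18, and W3 gave 0.54, 0.13, 0.12 and -0.20. These kidneys straddled W5, while 20.8% of all probes had the W2 arrays on 1 side.

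Fitted Cish values, each with an SE of 0.098, were -0.50 for W1, then -0.075 for W2 and 0.15 for W3, with W4 at 0.43. The order from the negative to the positive side was W1, W2, W5, W3 and W4. W1 and W4 lay 0.93 apart, which is the range and equals 1.91-fold. The arrays of W1 and W4 did not overlap, with a gap of 0.35, nor did those of W2 and W4, with a gap of 0.14. Arrays without overlap occurred at 3.93% of all tested probes for W1 and W4 and at 4.59% for W2 and W4. The arrays of the other 4 pairs of mice overlapped, where 5.54% (W1 and W2), 5.4% (W1 and W3), 4.79% (W2 and W3) and 4.41% (W3 and W4) of probes did not. W2 and W3 each had arrays on both sides of W5, so no neighbours in the order were separated in all their arrays. The 4 littermates lay around W5 with a mean of -1e-04 ± 0.39 (SD, n = 4 mice), so W5 stood in the middle of them.

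**Figure D1:**
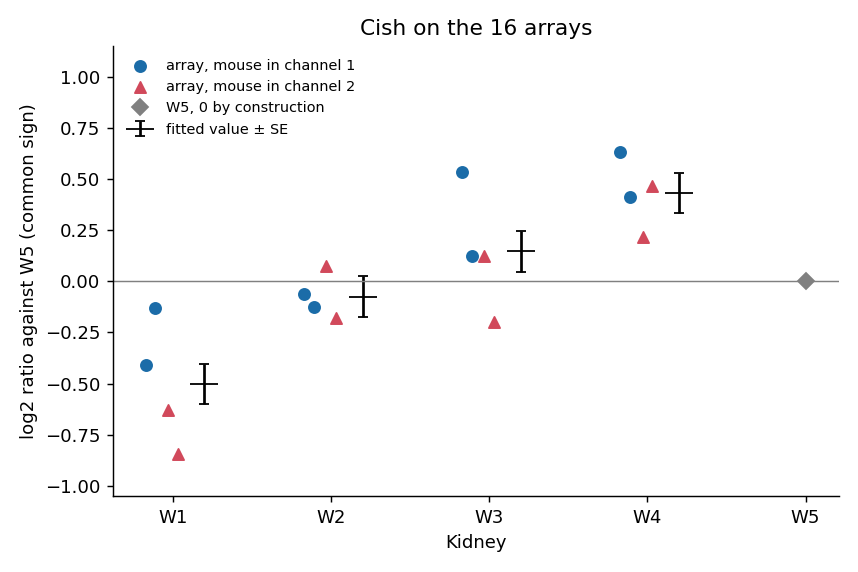
Log2 ratio of Cish against W5 on each array (y axis) by kidney (x axis). Circles are arrays with the mouse in channel 1, triangles arrays with the mouse in channel 2, bars the fitted value ± SE, and the diamond is W5 at 0. All W1 arrays lie between -0.84 and -0.13 and all W4 arrays between 0.22 and 0.63.

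By range, Cish was number 33 of 8005 named genes tested. Just ahead were the chloride-proton exchanger gene Clcn7 at 0.94 and Svep1 at 0.94, and just behind were the sphingomyelinase gene Smpd3 at 0.91 and the acyl-CoA oxidase gene Acox2 at 0.91. Of all tested probes, 99.5% had a smaller range. The residual SD of Cish over arrays was 0.20, and 52.7% of probes had a smaller one, so the spread over kidneys came with ordinary array noise. Cish was called at an adjusted p under 0.05 in limma's F test over the 5 kidneys, where 4% of 15715 probes were called, and in the F test among W1 to W4, where 0.7% were. It was also called in the pairs of W1 with W5, W4 with W5 and W1 with W4, where 0.795%, 2.01% and 0.235% were. No other pair was called, including W3 with W5, where 0.592% were, and the non-overlapping W2 with W4 (limma adjusted p = 0.156), where 0.274% were. The call of W1 with W5 was lost without the orientation term or without W1.1, W1.2 or W1.4. That of W4 with W5 was lost without the orientation term, mouse W1, W4.1 or W4.4. Array weights or scaling to a common median absolute deviation also ended it. Nothing is read from these calls, because Cish was chosen on this contrast.

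The Cish range was 0.51 without mouse W1 and 0.65 without mouse W4. Leaving out any 1 array kept the range between 0.85 and 1.02. The order of the 5 kidneys was the same in all 24 other settings that kept every mouse.

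**Figure D2:**
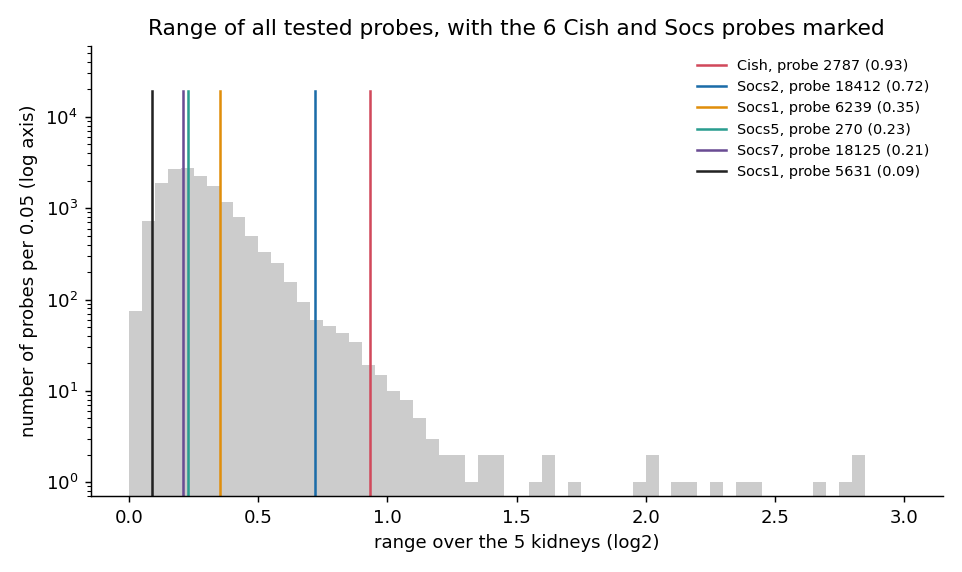
Number of tested probes (y axis, log scale) by range over the 5 kidneys in log2 units (x axis), with vertical lines at the 6 tested Cish and Socs probes. Cish at 0.93 and Socs2 at 0.72 lie in the right tail, and the other 4 lines lie at 0.35 or below, within the bulk.

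Socs2, which restrains growth hormone receptor signalling and whose loss causes gigantism in mice, lay farthest from W5 in W2. Its probe 18412 read 0.018, -0.78 and -0.98 on the 3 measured arrays of W2. It read -0.0011, -0.12, 0.033 and -0.35 in W1. In W3 it read 0.20, 0.20, 0.29 and 0.016, and in W4 -0.31, 0.098, -0.12 and -0.13. Array W2.1 with the mouse in channel 1 lay at W5, and both arrays with the mouse in channel 2 lay far on the negative side. All 4 arrays of W3 lay on the positive side, and 17.8% of all tested probes had the W3 arrays on 1 side. Every pair of mice had overlapping arrays.

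Its fitted values were -0.55 ± 0.13 for W2 (n = 3 arrays) and 0.18 ± 0.11 for W3, while W1 and W4 had -0.11 ± 0.11 and -0.12 ± 0.11. The range of 0.72, or 1.65-fold, was larger than that of 98.5% of tested probes. The limma F test over the 5 kidneys did not call it (adjusted p = 0.0976, unadjusted p = 0.00571), nor did the test among W1 to W4 (adjusted p = 0.207). The single pair of W2 and W5 was called (limma adjusted p = 0.0357), where 2.34% of probes were. It was the only call among the 10 pairs of each of the 5 tested Socs probes, with p adjusted over all probes within a pair.

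The Socs2 call rests on few arrays. Without W2.1 the fitted W2 value was -0.85 and the 5-kidney test called Socs2 (limma adjusted p = 0.00867). Without W2.2 or W2.4 the pair of W2 and W5 was not called (limma adjusted p = 0.173 and 0.283), nor without W1.1 or W1.3 (limma adjusted p = 0.0523 and 0.0511). It kept its call in 20 of 26 other settings, and the limma adjusted p over all 26 lay between 0.00353 and 0.283.

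The second Socs2 probe, 3213, had only 12 array values, 2 of them in W1 and 2 in W2, and did not enter the tests. It read -0.053 and -0.95 in W2, and 0.32 and -0.32 in W1. It read 0.39, 0.13, 0.28 and 0.50 in W3, and 0.23, -0.43, 0.32 and -0.17 in W4. W2 was again the outermost kidney on the negative side and W3 on the positive side. On the 11 arrays that both probes measured, 8 pairs of values had the same sign (Pearson r = 0.72, a description over arrays that share W5 and channel orientation). With probes kept at 2 arrays per mouse, the fitted value of W2 was -0.50 ± 0.16 and that of W3 0.32 ± 0.11. That fit did not call it over the 5 kidneys (limma adjusted p = 0.183), but called its orientation term (limma adjusted p = 0.043).

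**Figure D3:**
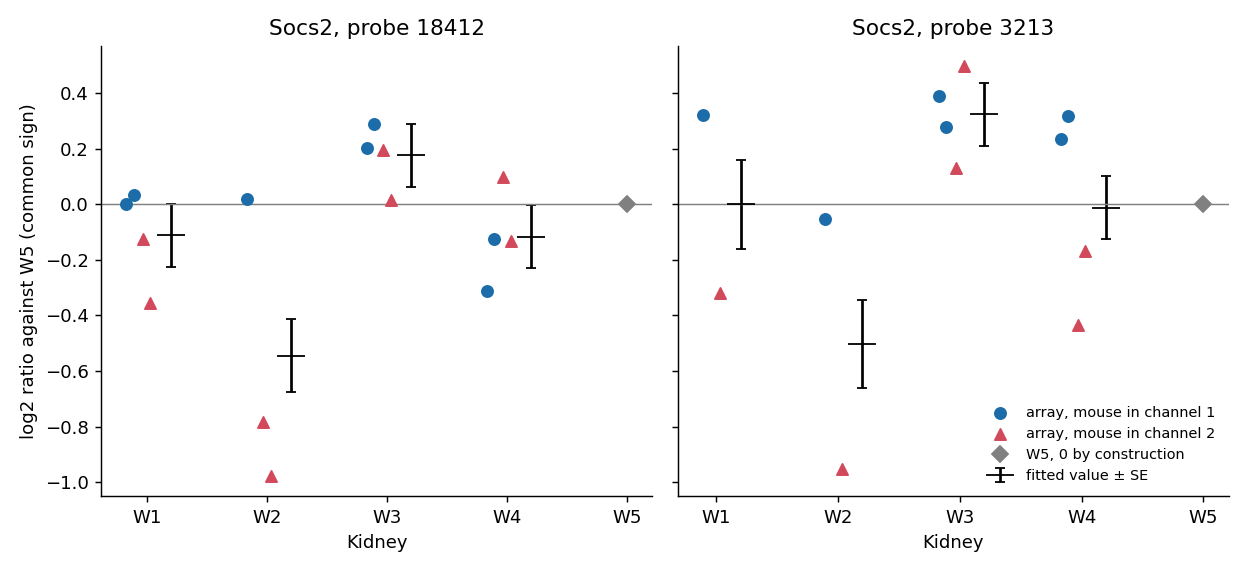
Log2 ratio of Socs2 against W5 on each array (y axis) by kidney (x axis) for probe 18412 (left) and probe 3213 (right), with symbols for channel orientation and bars for the fitted value ± SE. In W2 the channel 1 arrays lie at 0.018 and -0.053, and the channel 2 arrays lie between -0.98 and -0.78.

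Socs1, the interferon-induced inhibitor that blocks JAK kinases directly, had no difference past the test. Probe 5631 spanned -0.25 to 0.40 on W1 arrays, -0.20 to 0.13 on W2 arrays, -0.29 to 0.50 on W3 arrays and -0.18 to 0.27 on W4 arrays. Each kidney had arrays on both sides of W5. Its range of 0.090 was among the smallest on the array, with 3.55% of probes smaller (limma adjusted p = 0.99). Its widest pair difference was W1 minus W2 at 0.090, with a 95% interval from -0.26 to 0.44.

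Probe 6239 of Socs1 was noisier, with a residual SD of 0.43 against 0.26 for probe 5631. It spanned -0.33 to 0.22 on W1 arrays, -0.092 to 0.17 on W2 arrays, -0.34 to 1.22 on W3 arrays and -0.22 to 0.58 on W4 arrays. The value of 1.22 came from array W3.4 alone, and the other W3 arrays lay at -0.34 to -0.029. Its outermost fitted values were -0.056 ± 0.18 in W1 and 0.30 ± 0.18 in W4, and it was not called (limma adjusted p = 0.67). The 2 Socs1 probes had the same sign on 10 of 16 arrays (Pearson r = 0.46).

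Socs5 and Socs7 had small values. Socs5, linked to epidermal growth factor receptor and interleukin 4 signalling, spanned -0.0087 to 0.19 on W1 arrays, -0.38 to 0.16 on W2 arrays, -0.28 to 0.14 on W3 arrays and -0.12 to -0.024 on W4 arrays. The arrays of W1 and W4 did not overlap, by a gap of 0.015, where 3.93% of all probes had none. All arrays of W4 lay on the negative side, and 16.8% of all probes had the W4 arrays on 1 side. Its range was 0.23, below the median of 0.24 over all probes (limma adjusted p = 0.667).

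Socs7, which binds insulin receptor substrates, spanned -0.12 to 0.17 on W1 arrays, -0.34 to 0.047 on W2 arrays, -0.18 to -0.10 on W3 arrays and -0.50 to 0.0016 on W4 arrays. All W3 arrays lay on the negative side, where 17.8% of all probes had them on 1 side. The other mice had arrays on both sides. W2, W3 and W4 had fitted values of -0.15, -0.14 and -0.18 with an SE of 0.087 each, against 0.023 in W1. Its range was 0.21, and it was not called (limma adjusted p = 0.335).

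**Figure D4:**
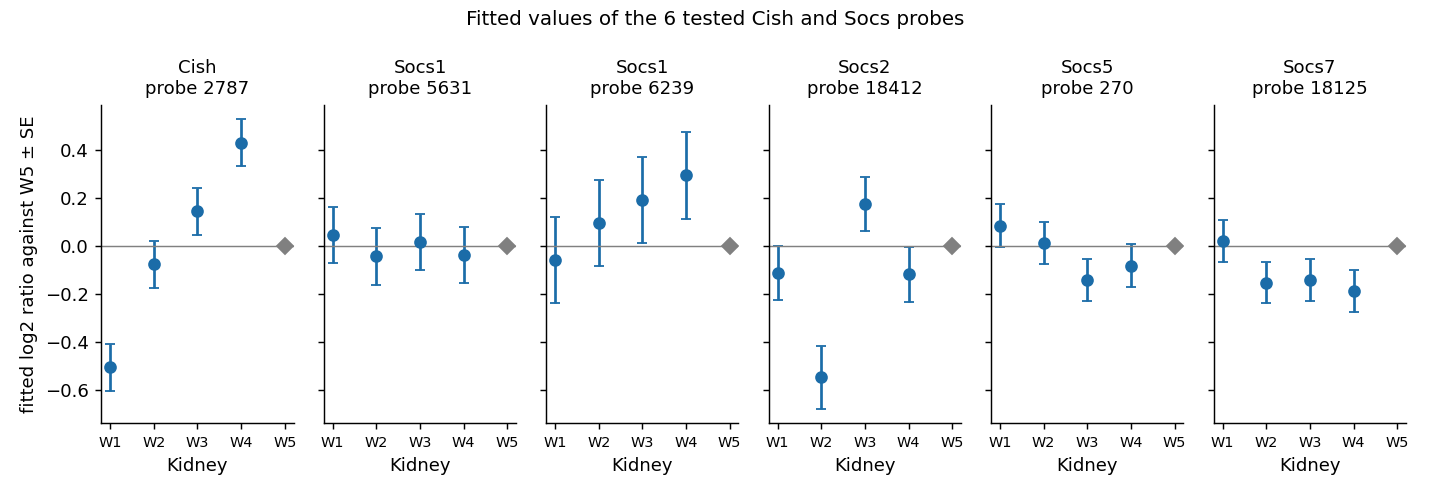
Fitted log2 ratio against W5 ± SE (y axis) in kidneys W1 to W4, with W5 as a diamond at 0 (x axis), for each of the 6 tested probes. Cish lies at -0.50 in W1 and 0.43 in W4, Socs2 departs in W2 at -0.55, and the other 4 probes stay within 0.30 of W5.

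Of the 5 Socs probes tested, 0 were called over the 5 kidneys, at a background of 4%, and 1 (Socs2) had an unadjusted p under 0.05, as did 17.9% of all probes. With the 4 mice as replicates against W5, limma called 0 of the 6 tested probes of Cish and Socs, against 0.286% of all probes. At an unadjusted p under 0.05 there were 0 of the 6, against 13.4% of all probes. The orientation term, a measure that the choice of Cish did not use, was called at 0 of the 6 probes and at 12.5% of all probes. It was 0.12 ± 0.049 for Cish (limma adjusted p = 0.107) and 0.11 ± 0.059 for Socs2 (limma adjusted p = 0.235). Both fitted terms put arrays with the mouse in channel 1 on the more positive side, though neither was called. Cish in W2 went the other way, with means of -0.095 in channel 1 and -0.054 in channel 2. So did Socs2 in W4, at -0.22 and -0.016. Of the 6 probes 1, Cish, had an unadjusted p under 0.05 in limma's test of this term, as did 29.3% of all probes.

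Correlations of the Socs probes with Cish were low or negative. After the orientation term was taken off, Pearson r with Cish over arrays was 0.059 for Socs2 (n = 15), -0.29 and 0.13 for the Socs1 probes, -0.41 for Socs5 and -0.54 for Socs7 (n = 16 each). The middle 90% of named genes measured on all arrays spanned -0.44 to 0.45. These arrays share W5 and come from only 4 comparisons of kidneys, so r is a description. The outermost kidney was W1 for Cish and W2 for Socs2, the family's STAT5 targets with the widest ranges. A difference between the 2 profiles was not tested.

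The rest of the pathway was read from lists of genes by role, where 4.2% of 8005 named genes were called over the 5 kidneys with a median range of 0.23. In the same test 1460 of the 8005 had an unadjusted p under 0.05, the background for the unadjusted counts of every list below. Of 11 measured cytokine receptor genes 0 were called (limma; 2 at an unadjusted p under 0.05), with a median range of 0.28. The widest was Csf2ra, a GM-CSF receptor chain, at 0.45 (limma adjusted p = 0.29). Of 4 measured ligand genes 0 were called and 1, Tslp, had an unadjusted p under 0.05, with a range of 0.56. The kidney probes of Gh and Prl, which encode growth hormone and prolactin, had ranges of 0.13 and 0.12. Ratios hold no level, so whether these genes were expressed in kidney could not be told. The circulating hormones were not measured. The genes for the growth hormone, prolactin and erythropoietin receptors, Il6st, Lifr and Igf1 were not among the named genes tested.

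Of 9 measured JAK and STAT genes 0 were called (limma; 1, Stat5b, at an unadjusted p under 0.05), with a median range of 0.24. The main STATs behind Cish, Stat5a and Stat5b, had ranges of 0.41 and 0.20 (limma adjusted p = 0.468 and 0.22). Stat5b lay at -0.0069, -0.20, -0.18 and -0.10 in W1 to W4, and Stat5a at -0.0077, -0.075, 0.21 and -0.20. Jak1, the kinase shared by interferon and gp130 receptors, had a range of 0.41, and Jak2, the kinase of the growth hormone receptor, one of 0.25. Stat3, which acts below interleukin 6, had a range of 0.15.

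Among 11 measured STAT5 and growth hormone targets 1 was called, which is 9.09%, and the median range was 0.26. This was Ccnd1, the cyclin D1 gene, at -0.18, 0.077, -0.18 and -0.45 in W1 to W4 (limma adjusted p = 0.0191). It lay farthest out in W4, on the side opposite to Cish, and lost its call in 6 of 27 other settings, 3 of which left out W4.1, W4.2 or W4.3 (limma adjusted p = 0.0571, 0.0674 and 0.079). Pim1, a STAT5-induced kinase gene, lay at -0.26, 0.11, -0.15 and 0.053 and was not called (limma adjusted p = 0.146). Igfals, which stabilises IGF complexes in blood and is induced by growth hormone, was outermost in W2 at -0.34 (limma adjusted p = 0.131). Mcl1, in the same list, was also outermost in W2 but on the positive side, at 0.34 (limma adjusted p = 0.193).

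Of 10 measured STAT3 and interleukin 6 targets 0 were called (limma; 5 at an unadjusted p under 0.05), with a median range of 0.27. Fgg, a fibrinogen chain gene, had the widest range at 0.69 (limma adjusted p = 0.167). Of 6 measured interferon targets 2 were called, which is 33.3% of a short list. Rsad2, an antiviral gene, lay at -0.064, 0.40, -0.086 and 0.47 in W1 to W4 (limma adjusted p = 0.00346), and Tap1 at 0.42, 0.50, 0.50 and -0.17 (limma adjusted p = 0.0315). Tap1 lost its call in 9 of 27 other settings (limma adjusted p = 0.0521 to 0.133), 8 of which left out W1.3, W2.2, W2.3, W2.4 or any 1 array of W3, and Rsad2 in 1.

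Among 16 measured inhibitors of other kinds 1 was called, Errfi1, an inhibitor of the epidermal growth factor receptor, at -0.17, -0.43, -0.58 and -0.36 in W1 to W4 (limma adjusted p = 0.000237). Of 15 measured partners and relatives in the SOCS box ubiquitin ligase family 0 were called (limma; 2 at an unadjusted p under 0.05). Cul5, the cullin itself, lay on the positive side in all 4 mice at 0.29, 0.26, 0.26 and 0.18 (limma adjusted p = 0.127). Elob, encoding elongin B, had a range of 0.26.

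The genes most like Cish over the 16 arrays were Pttg1, Fam78b, Cdrt4, Trib2 and Nr1h4, with Pearson r of 0.76, 0.73, 0.69, 0.68 and 0.68. They were taken from 277 named genes measured on every array with a range of at least 0.5. Pttg1, the securin gene, lay at -2.43 in W1 against -0.90 to -0.70 in the other mice. Trib2, a pseudokinase gene, lay at 0.47 in W3 and 0.77 in W4, and near W5 in W1 and W2. Nr1h4, the bile acid receptor gene, was on the positive side in all mice and farthest in W4 at 0.90. Cdrt4 was not called over the 5 kidneys (limma adjusted p = 0.144). Fam78b lost its call without W4.1, W4.3 or W4.4 (limma adjusted p = 0.07, 0.0624 and 0.0762). Second probes of Fam78b and Trib2 were not called (limma adjusted p = 0.644 and 0.279), while that of Nr1h4 was.

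The genes most opposed to Cish were Gamt, Mark3, Nup155, Ccdc141 and Fam110b, with Pearson r from -0.83 to -0.80. Gamt, which makes creatine, lay at 0.61, 0.46, 0.36 and -0.18 in W1 to W4. Second probes of Mark3 and Fam110b were not called (limma adjusted p = 0.388 and 0.205). Once each mouse's mean was taken off, r with Cish lay between -0.24 and 0.38 for the 5 alike genes and between -0.61 and -0.14 for the 5 opposed ones.

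**Figure D5:**
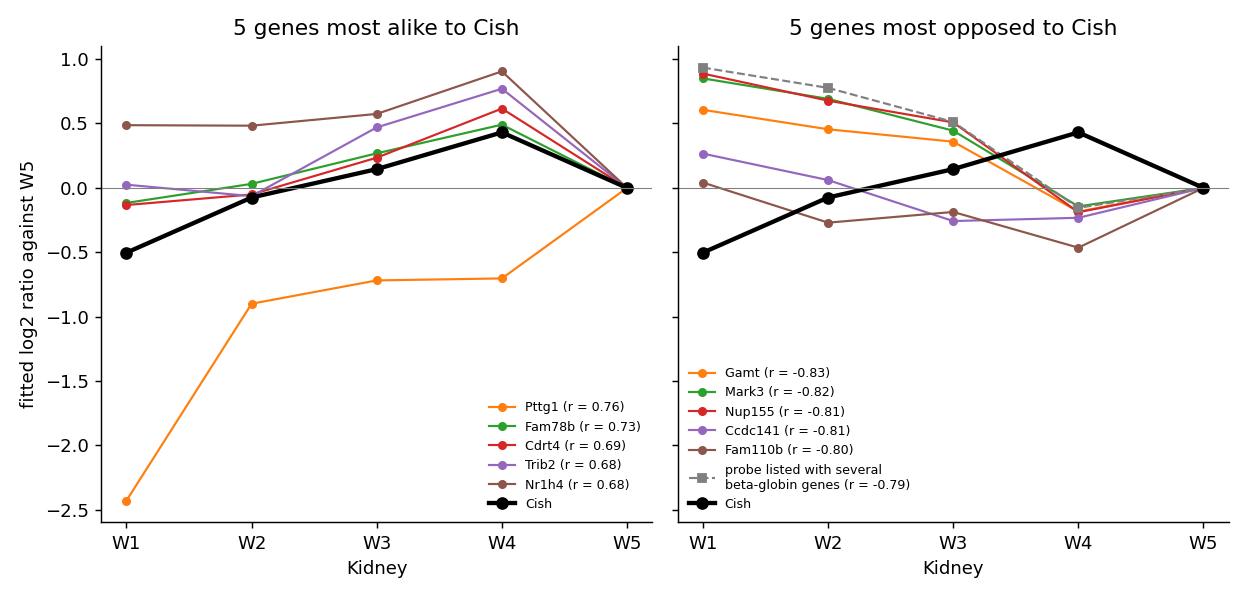
Fitted log2 ratio against W5 (y axis) in the 5 kidneys (x axis) for Cish (black) and the 5 genes most alike (left) or most opposed (right), with lines joining the points of a gene. The dashed line is the beta-globin probe, at 0.93 in W1 and -0.16 in W4, where Cish has -0.50 and 0.43.

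Signals tied to other cell types were set beside Cish. The probe shared by Hbb-b1 and Hbb-b2, adult beta-globin genes, lay at 0.93, 0.78, 0.51 and -0.16 in W1 to W4, with r = -0.79 to Cish, and the one shared by the alpha-globin genes and H3f3a had r = -0.62. Both were called over the 5 kidneys (limma adjusted p = 3.36e-08 and 0.00589), where 4% of all tested probes were. Their ranges were 1.09 and 0.83. They were looked up after the opposed genes had been seen, and they name no single gene. The embryonic globin genes Hbb-y and Hba-x had r = 0.068 and -0.085 and were not called (limma adjusted p = 0.935 and 0.733). The 3 measured red cell genes, Klf1, Slc4a1 and Alas2, had ranges of 0.18 to 0.27, and 0 were called (limma; 0 at an unadjusted p under 0.05). The part of blood in the Cish values was not tested.

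The shares called over the 5 kidneys were 7.69% of leukocyte, 44.4% of endothelial, 71.4% of adipose and 40% of proximal tubule markers. Of all 8005 named genes 4.2% were called. Leukocyte markers had 1 of 13 measured members called, and list medians of -0.073, -0.057, 0.041 and 0.011 in W1 to W4. The called gene was S100a8, a neutrophil gene, outermost in W2 at -0.46. It was not called without W2.1 or W2.3 (limma adjusted p = 0.0937 and 0.0871). A second probe of Lyz2, a macrophage gene, was called (limma adjusted p = 0.0117) where its first was not (0.127). The T cell genes Cd3d, Cd3g, Cd4 and Cd8a had ranges of 0.23 to 0.31 and were not called. Cd8a had another probe with a range of 0.45, also not called (limma adjusted p = 0.236). Endothelial markers had 4 of 9 called, Esm1, Emcn, Egfl7 and Ehd3, with list medians of 0.047, 0.36, -0.038 and 0.26, so W2 and W4 both lay on the positive side there. The call of Ehd3 was lost in 9 of 27 other settings (limma adjusted p = 0.0509 to 0.0907), among them without any 1 array of W2 or without W4.1, and its second probe was not called (limma adjusted p = 0.624). A second probe of Flt1, a VEGF receptor gene, was called (limma adjusted p = 0.00393) where its first was not (0.406). Adipose markers had 5 of 7 called, led by Scd1, Cidec, Fabp4 and Lpl with ranges of 0.87, 0.85, 0.67 and 0.58, and list medians between -0.35 and -0.24 in all 4 mice. Lpl lost its call without W2.2, W2.3 or W2.4 (limma adjusted p = 0.119, 0.122 and 0.113), while both of its other probes were called (limma adjusted p = 0.00309 and 0.000717). Proximal tubule markers had 4 of 10 called, Slc22a7, Slc17a3, Aqp1 and Slc7a7, with list medians of 0.0093, 0.15, -0.064 and 2e-04. The part of these cell types in the Cish values was not tested.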

How the data were processed

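The authors deposited log2 ratios of the 2 channels of each array. Per the labels' protocols, these came from background-subtracted mean intensities of a GenePix 4000A scanner, scaled so that ratios had a median of 1. Base 2 was read off the values: less each array's most frequent value, 1.48% to 5.01% came within 2e-06 of the log2 of a quotient of integers no larger than 12, against at most 0.13% for natural log or log10. Not given in the sources used here are the dye of each channel, the numerator and the rule behind missing values. An array held values for 80.2% to 91.1% of probes. For arrays, their number limits the precision.

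Signs were turned where W5 was in channel 1. The 15715 probes that had a value on 3 or 4 arrays in each mouse were fitted with limma 3.58.1 in R 4.3.3 (lmFit, eBayes) with a coefficient per mouse and a gene-specific orientation term. W5 was set against its littermates on 4 mouse means, which leaves out the spread of W5. P-values were two-sided and adjusted by Benjamini-Hochberg over all probes within a question, and called under 0.05. The steps were tested on simulated data. Symbols came from the platform annotation (11723 probes with 1 symbol, 806 with several, 7676 unnamed here), matched by gene ID to GRCm38.p6 for 11590. A gene with several probes was represented by the one measured on most arrays.

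All members are named, with list members called over the 5 kidneys (at most 4 a list), the central JAK and STAT genes, and the 5 genes most alike and most opposed to Cish. Others named as the widest or closest by role were chosen after their values were seen. Members, lists and tests were chosen with earlier results of these data known. Alternatives covered the orientation term, array weights, scaling, centring, missing values, probes per gene, array number as a block, and each array or mouse left out.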

Additional observations from a re-analysis of the deposited data

Results flagged for a closer look

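Cish differed in sign between W1 and W4: all 4 arrays of W1 lay on the negative side of W5 and all 4 of W4 on the positive side, with W1 minus W4 at -0.93. The fit called this pair, but Cish was chosen on these values, so the difference was not tested independently of that choice. Within a mouse, 2 of 25 sets of 4 arrays had 1 array far from the rest, and chance gives about 1 in 20. Array W2.4 read -0.092 for Socs1 probe 6239, where the other W2 arrays lay between 0.15 and 0.17. Array W2.3 read -0.38 for Socs5, where the other W2 arrays lay between 0.13 and 0.16.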

How the results depend on the processing

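The count of Cish and Socs probes called was 1 over the 5 kidneys, 1 among W1 to W4, 4 over the 10 pairs (3 of Cish and 1 of Socs2), 0 for W5 against its littermates and 0 for the orientation term. Leaving out 1 array gave 1 to 2, 1 to 2, 2 to 5, 0 and 0, and a Cish range of 0.85 to 1.02. Without mouse W1 the first 3 counts were 0, 0 and 0 and the Cish range 0.51. Without mouse W4 the count among the rest was 0, that over pairs 2, which has fewer pairs to call, and the Cish range 0.65. Without the orientation term the pairs gave 2, and with probes kept at 2 arrays per mouse the orientation term gave 1, the second Socs2 probe. With the array number as a replicate block the count over the 5 kidneys was 1 and the Cish range 0.93, and the block ended the call of 1 named gene, Ehd3 (limma adjusted p = 0.0509). Whether array numbers pair the arrays was not settled. Same-numbered arrays of different mice had residual correlations of -0.253 to 0.135. Arrays of different mice with another number of the same orientation had -0.284 to 0.00858. Best matches fell on an array's own number for 0 of 16 arrays. Equal numbers share an orientation, and taking off the orientation term lowers correlations within one, so that result cannot decide the question. The other settings kept the counts of Cish and Socs calls within 1.5 times, though not always the same calls. With array weights or a common median absolute deviation the pairs again gave 4. There the Cish call of W4 with W5 gave way to that of W1 with W3. Over 38 named probes, 976 of 1021 alternative values kept their call status, 44 lost a call, and 1 gained one (Socs2 without W2.1). Of these, 0 of 728 values of called probes changed sign and 1 of 293 values of uncalled ones did, Socs1 probe 5631 in W1 at -0.047 without W1.4, against 0.048 with it. The causes were not tested. Residual SDs ran from 0.15 to 0.23 over arrays, the highest in W4, and limit what small differences can be seen. The count of all probes called over the 5 kidneys was 457 to 671 with 1 array left out, against 629.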
